A study of Mus musculus with 60 samples.

Results

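The collagen genes, all genes of the table whose symbol has the form of a collagen alpha chain (Col, a type number, a and a chain number), comprised 44 genes in 45 rows of the 26727 genes and 27665 rows counted. Col18a1 was counted over 2 nested gene bodies, called Col18a1-long and Col18a1-short here. Members were chosen by symbol alone, after the deposited transcript identifiers had been matched to the GENCODE M21 annotation of GRCm38 (mm10). Nascent transcription was profiled by EU-seq, in which cells were given 0.5 mM 5-ethynyl uridine for 20 min, so that RNA made during the pulse was sequenced. The study asked how transcription responds to acute loss of the cohesin subunit RAD21, of CTCF, or of CBP/p300 catalytic activity, in mouse embryonic stem cells (mESCs) and neural progenitor cells (NPCs).

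All mESC groups were E14 ES cells kept in N2B27 with LIF and 2i, and controls received vehicle. The RAD21-AID line (GFP-AID-Rad21) was profiled in an initial set of 2 control libraries and 2 libraries after 500 µM auxin (IAA) for 4 h, and in an additional set of 12 and 12. NPCs came from this line by way of epiblast stem cells and were kept in FGF2 and EGF, with 2 libraries each for control, IAA at 1, 2 and 4 h, and 10 µM of the CBP/p300 inhibitor A-485 at 1 h. The CTCF-AID line (GFP-AID-Ctcf) had 4 control libraries and 4 libraries after IAA for 6 h, of which 2 in each arm were strand-specific. The CTCF-YF-AA line (GFP-FKBP12F36V-Ctcf with Y226A and F228A) had 2 control libraries and 2 each after dTAG-13 for 2 and 4 h, so its controls already carried the mutant CTCF. The CTCF-dN/dC line (bTAG-delN-CTCF/dTAG-CTCF-delC) carried an N-terminally and a C-terminally truncated CTCF in every group. It had 2 libraries each for control, 100 nM AGB1, which acts on the bTAG, 100 nM dTAG-13, which acts on the dTAG, and both together, all for 2 h. The labels gave 200 nM dTAG-13 for the YF-AA line, although the sources used here did not give 1 dose throughout for either line. Both mutant lines were grown from picked colonies.

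Collagens are the main structural proteins of the extracellular matrix, each a triple helix of alpha chains. Fibrillar collagens build the fibrils of skin, bone, tendon and cartilage, and fibril-associated (FACIT) collagens coat those fibrils. Type IV chains form the network of basement membranes and type VI chains form beaded filaments around cells, whereas transmembrane collagens stay anchored in the plasma membrane. Multiplexins sit in basement membranes, and short-chain collagens form hexagonal nets. Fibroblasts and other mesenchymal cells are the usual producers of the fibrillar chains. Paired type IV genes lie head to head, so that 1 stretch of DNA serves as promoter for both. Cohesin extrudes chromatin loops, CTCF halts extrusion and also binds promoters, and CBP/p300 acetylates histones at enhancers.

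Collagen gene bodies spanned 7.105 to 419 kb, with a median of 114.4 kb, and 26 of the 45 rows were longer than 90 kb. Members fell into 11 fibrillar genes, 9 FACIT genes, 6 type IV genes, 6 type VI genes, 4 transmembrane genes, 3 short-chain genes, 3 rows of multiplexins and 3 other genes.

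The 60 libraries gave 56 columns of gene-body counts, which summed to between 4027449 and 21898781 reads, and 6 columns over the first 90 kb. The 10 genes with most counts took 2.35 to 5.979% of a column. Rad21 and Ctcf transcripts differed by -0.04 to 0.13 in log2 fold change in the lines in which their proteins were tagged, so these transcripts do not check the depletion, which acts on the protein. No pair of libraries held identical values. The summed pluripotency markers (6 genes) came to 4464 to 4884 TPM (transcript counts scaled for the length of the counted gene body and the depth of the library) in the additional mESC controls and 37.75 to 45.98 in the NPC controls. Of the 7 neural progenitor markers, 6 exceeded 15 TPM in NPCs, and they summed to 2820 to 3058 TPM there against 170.1 to 200.6 in mESCs, where Fabp7 was at 0. The mesenchymal or fibroblast list (Twist1, Prrx1, Pdgfra, Dcn, Lum and Acta2) also lay above 15 TPM in NPCs in 6 of 6 genes, with sums of 634.5 to 667.4 TPM against 5.249 to 12.02 in mESCs, where none was at 0 and none exceeded 15. Endothelial markers summed to 21.37 to 21.63 TPM in NPCs and 28.64 to 38.18 in mESCs, extraembryonic endoderm markers to 9.687 to 10.44 and 2.563 to 3.78 with Sox17 at 0 in NPCs, neuron markers to 49.75 to 50.11 and 59.52 to 73.36, and astrocyte markers to 35.92 to 38.64 and 12.65 to 16.71. NPCs of this study therefore carried RNA of both neural progenitor and mesenchymal marker genes, and in such bulk samples fewer cells of a type and less RNA per cell cannot be told apart.

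Few collagen genes were transcribed strongly in mESCs, and the fibrillar and type VI genes dominated in NPCs. In NPC controls, 15 of 45 rows exceeded 15 TPM, 21 exceeded 5 TPM and 9 lay below 1 TPM, with a median of 4.625 TPM. In the additional mESC controls, 2 rows, both of Col18a1, exceeded 15 TPM, 6 exceeded 5 TPM and 32 lay below 1 TPM, with a median of 0.5336 TPM. Collagen rows together took 0.0437 to 0.0469% of all counts in the 12 mESC libraries and 0.659 and 0.703% in the NPC libraries, with reads of the nested Col18a1 bodies counted in both. By class, 7 of 11 fibrillar, 3 of 6 type VI, 2 of 6 type IV, 1 of 9 FACIT and 2 of 3 multiplexin rows exceeded 15 TPM in NPCs, and no transmembrane, short-chain or other collagen did.

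Col3a1 had the highest level per length in NPC controls, at 808.4 and 920.8 TPM (mean 864.6 ± 79.47, SD, n = 2), which placed it 55 among all rows. This gene encodes the chain of the type III homotrimer, found with type I in skin and vessel walls. Col1a1 and Col1a2, which encode both chains of type I collagen, followed. Col1a1 reached 704.1 and 815.5 TPM, a range that overlapped that of Col3a1. Col1a2 reached 296.4 and 340.3 TPM, below both. The type VI chains Col6a1 (110.7 and 137.8 TPM), Col6a3 (81.65 and 90.81) and Col6a2 (70.09 and 84.22) came next, and the latter pair overlapped. Col18a1-short (68.57 and 73.5 TPM) overlapped Col6a2 but not Col4a1 (59.0 and 65.79 TPM). Below these lay Col5a1 at a mean of 54.63 TPM, Col18a1-long at 53.43, Col12a1 at 38.28, Col11a1 at 33.89, Col5a2 at 30.49, Col4a2 at 25.06 and Col27a1 at 20.18.

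In mESC controls the order was different. Col18a1-short had the lowest, median and highest values of 23.23, 26.6 and 29.21 TPM over 12 libraries, and Col18a1-long had 19.5, 22.49 and 24.7, so the ranges overlapped. Col18a1, a multiplexin of basement membranes, is the parent of the fragment endostatin. Its bodies overlap Slc19a1 on the opposite strand over 7.72% and 12.85% of their length. Col10a1, the collagen of hypertrophic cartilage, came next at 9.611, 11.35 and 15.64 TPM. Its whole body lies inside Nt5dc1 on the opposite strand, and the sources used here do not give the strand setting of the counting, so reads of the pair may not be separated. Col10a1 had 0 counts in both stranded controls of the CTCF-dN/dC line. It had 10 and 35 counts in the controls of the YF-AA line, which were not labelled stranded, as the RAD21-AID libraries were not. The share of Nt5dc1 reads in its level was not tested. Col13a1 (6.993, 7.191 and 7.897 TPM) and Col9a2 (5.241, 6.475 and 8.662 TPM) followed and overlapped each other.

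The counts cover gene bodies and do not measure which start sites were used. The promoter of Col3a1, the collagen with the highest level in NPCs, is shown for the sequence before its annotated start. It covers chr1:45311288-45311537 on the plus strand of GRCm38.p6 (RefSeq), the 250 bases before the counted start of transcript ENSMUST00000087883.12, whose body runs from 45311538 to 45349706 on chromosome 1. Capitals mark the letters TATAAA at positions 134 to 139 of the window.
Col3a1 upstream: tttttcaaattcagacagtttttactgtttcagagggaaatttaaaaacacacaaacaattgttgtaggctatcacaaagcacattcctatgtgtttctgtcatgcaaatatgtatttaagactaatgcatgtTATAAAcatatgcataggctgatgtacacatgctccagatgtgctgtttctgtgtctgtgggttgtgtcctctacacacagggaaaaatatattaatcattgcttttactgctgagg
RefSeq promoter windows were matched for 35 of the 44 collagen genes, in 38 windows. The letters TATAAA, searched on both strands, occurred in 5 of the 38 and in 12.4% of 32851 windows of the same length. The letters GGGCGG occurred in 22 of 38 against 32.7% of all windows and CCAAT in 13 of 38 against 33.8%.

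NPC controls were next compared with the additional mESC controls, to describe how transcription of the family differs between the cell types. Here and below, a called row passed both an adjusted p of 0.05 (edgeR, quasi-likelihood) and a 2-fold difference. Log2 fold changes were centred on the median of expressed genes, and levels are given in CPM (counts scaled to library depth, not corrected for length) as the lowest, median and highest of 12 mESC libraries and as both NPC libraries. Of 44 rows tested, 37 were higher in NPCs and 2 were lower, whereas 26.8% of all 17290 rows were called higher and 18.7% lower. A row was tested if its mean count exceeded 20 in either group. In the additional mESC set, 16 collagen rows did not reach that limit, Col3a1, Col1a1 and Col1a2 among them. Those of the 16 tested here entered through their NPC counts alone, so the filter left no room for a lower call. The median log2 fold change was 3.24 for collagen rows and 0.11 for all rows. All 44 passed the adjusted p alone, as did 45.4% of all rows upwards and 44.4% downwards. The labels put the NPC libraries in 1 batch and the mESC controls in 2 others (replicate 1 in one, the rest in the other), so cell type and batch cannot be told apart in this comparison. The mesenchymal markers moved with it, as Prrx1 went from 0.054 to 202.0 CPM and Dcn from 0.0138 to 200.8 CPM, and their part in the result was not tested.

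All 11 fibrillar genes were higher in NPCs, with a median of 4.33. Col3a1 was at 0.121, 0.198 and 0.293 CPM in mESCs and at 1735 and 1902 CPM in NPCs (log2 fold change 13.24, SE 0.0501, adjusted p = 1.91e-72, edgeR). Col1a2 stood at 0, 0.202 and 0.562 CPM against 601 and 664 (11.35). Col1a1 stood at 0.447, 0.8294 and 1.18 CPM against 666 and 742 (9.84). These chains thus went from a few counts per library in mESCs to the top of the family in NPCs. The type V and XI chains, minor partners that set fibril diameter, started from a measurable level. Col5a1 was at 20.6, 24.7 and 27.3 CPM against 452 and 469.8 (4.33). Col5a2 was at 3.64, 5.51 and 6.98 CPM against 213 and 220.3 (5.40). Col11a1 was at 7.69, 9.63 and 11.2 CPM against 355 and 356 (5.32). Less was seen for the other partners of these chains. Col11a2 was at 0.471, 0.825 and 1.23 CPM against 6.55 and 6.57 (3.05). Col5a3 was at 2.69, 3.27 and 3.6 CPM against 9.86 and 13.1 (1.91). Col27a1 and Col24a1, fibrillar chains of developing cartilage and bone, were also higher. Col27a1 was at 8.21, 9.88 and 13.3 CPM against 133.0 and 133.1 (3.84). Col24a1 was at 0.879, 1.3 and 1.65 CPM against 13.7 and 18.5 (3.74). Col2a1, the main cartilage chain, changed least, with 1.61, 2.69 and 4.98 CPM against 4.66 and 6.17 (1.00), and it alone of the called rows had groups that overlapped.

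Col6a1 and Col6a2, which lie side by side on the minus strand of chromosome 10, and Col6a3 on chromosome 1 encode the chains of the common type VI trimer. Col6a3 was at 0.0639, 0.198 and 0.582 CPM in mESCs against 358 and 384 in NPCs (10.84). Col6a2 was at 0, 0.178 and 0.424 CPM against 109.8 and 127 (9.16). Col6a1 was at 0.128, 0.396 and 0.735 CPM against 108 and 129.6 (8.21). The chains that can replace Col6a3 in the trimer lie in a row on the minus strand of chromosome 9 (Col6a6 at 105687809 to 105828160, Col6a5 at 105856078 to 105960643, Col6a4 at 105990478 to 106096783), and these neighbours went different ways. Col6a6 was at 0.934, 1.52 and 2.02 CPM against 12.35 and 14.4 (3.20). Col6a5 was lower in NPCs, at 3.9, 5.76 and 7.27 CPM against 0.608 and 1.06 (-2.68, SE 0.234). Col6a4 was at 3.15, 4.33 and 4.94 CPM against 1.87 and 2.23 (-0.96), under the 2-fold limit.

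All 6 type IV genes were higher in NPCs, with a median of 3.49, and they are described with their promoters further on. Of the FACIT genes, 6 of 8 tested were higher (median 1.95). Col12a1, which binds type I fibrils, was at 0.293, 0.56 and 0.826 CPM against 249.6 and 255 (8.90). Col16a1 was at 0.808, 1.21 and 1.42 CPM against 35.9 and 38.5 (5.11). Col19a1 was at 0.303, 0.61 and 0.962 CPM against 9.96 and 10.05 (4.09). The remaining FACIT genes moved less. Col14a1 was at 6.41, 7.11 and 9.37 CPM against 39.3 and 39.7 (2.56). Col20a1 was at 2.68, 3.69 and 4.98 CPM against 8.56 and 8.85 (1.34). Col9a3 was at 6.3, 7.22 and 8.14 CPM against 15.8 and 16.2 (1.24). Col9a2 (0.65) and Col22a1 (0.49) stayed under 2-fold, and Col9a1, whose end faces that of Col19a1 on chromosome 1, was too low to test at 0, 0.145 and 0.294 CPM against 0.514 and 0.795.

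Transmembrane collagens differed in direction. Col13a1, found at cell adhesion sites, was at 57, 59.1 and 63.6 CPM in mESCs and at 3.98 and 4.24 in NPCs (-3.77, SE 0.0792, adjusted p = 6.12e-41, edgeR), the only member of mESC level above 10 CPM that was lower in NPCs. Col25a1, a neuronal collagen, was at 0.732, 1.23 and 1.75 CPM against 72.4 and 74.9 (5.87). Col23a1 was at 4.05, 4.71 and 5.9 CPM against 22.2 and 23.2 (2.30), and Col17a1, of epithelial hemidesmosomes, differed by 0.55. Both multiplexins were higher in NPCs. Col18a1-short was at 86.1, 93.3 and 99.1 CPM against 234 and 242 (1.45). Col18a1-long was at 135, 149 and 155 CPM against 331 and 343 (1.30). Col15a1 was at 0.363, 0.852 and 1.14 CPM against 3.66 and 4.07 (2.32). The short-chain and other collagens completed the family. Col8a1, of vascular and corneal matrix, was at 0, 0.0966 and 0.471 CPM against 8.74 and 11.9 (6.24). Col8a2 was at 0.405, 0.667 and 1.06 CPM against 2.95 and 3.76 (2.43), while Col10a1 differed by -0.32. Col26a1 was at 0.648, 1.54 and 1.81 CPM against 67.4 and 72.3 (5.66). Col28a1 was at 0.324, 0.592 and 1.17 CPM against 10.0 and 10.4 (4.12). Col7a1, which forms the anchoring fibrils of skin, was at 0.726, 1.38 and 2.23 CPM against 11.2 and 14.6 (3.28).

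Genes that fold, cut and bind collagen were listed separately, and their counts stand beside 26.8% of all rows higher and 18.7% lower. Of 22 rows for folding, modification and export, 12 were higher in NPCs and none lower, with Serpinh1 (the collagen chaperone HSP47) going from 8.793 to 208.2 CPM on average (4.66) and the prolyl hydroxylase P3h2 from 1.056 to 98.01 (6.60). Of 12 genes for cleavage and crosslinking, 10 were higher and 1 lower. The procollagen proteinase gene Bmp1 differed by 4.47 and the lysyl oxidase gene Loxl2 by 6.27, and Pcolce2, an enhancer of that cleavage, went from 82.62 to 5.247 CPM (-3.90). Of 7 receptor genes, 6 were higher, among them Itgb1 (2.09) and the discoidin receptor genes Ddr1 (3.31) and Ddr2 (2.15). The 13 basement membrane partners gave 15 rows, of which 5 were higher (Lamb1 4.15, Lama4 4.597, Lama2 5.36) and 2 were lower (Lama5 from 305.5 to 23.48 CPM, -3.61), shares near those of all rows.

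Among 1276 divergent gene pairs of the table with starts within 1000 bases, 2 consisted of collagen genes, Col4a1 with Col4a2 and Col4a4 with Col4a3. None joined 1 collagen to another kind of gene. Col4a1 starts at 11312826 on the minus strand of chromosome 8 and Col4a2 at 11312805 on the plus strand, so the bodies overlap by 22 bases. Col4a4 starts at 82586849 on the minus strand of chromosome 1 and Col4a3 at 82586976 on the plus strand, 126 bases apart. The third type IV pair, Col4a6 (start 141474076, minus) and Col4a5 (start 141475385, plus) on chromosome X, has 1308 bases between its starts and fell outside the limit, but it would enter at 2000 bases. The shared stretches are printed for GRCm38.p6, plus strand, with a GGGCGG match in capitals. The first is chr8:11312805-11312826 and the second chr1:82586850-82586975, in which neither GGGCGG nor CCAAT matched. Other motifs were not searched in these stretches.
Col4a1 and Col4a2 shared: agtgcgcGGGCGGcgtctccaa
Col4a4 to Col4a3: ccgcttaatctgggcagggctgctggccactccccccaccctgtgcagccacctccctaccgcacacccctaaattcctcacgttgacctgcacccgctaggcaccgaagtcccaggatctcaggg

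The major type IV chains, Col4a1 and Col4a2, were both higher in NPCs, with Col4a1 above Col4a2 per length in either cell type. Col4a1 was at 10.04, 11.8 and 13.9 CPM in mESCs against 379.5 and 407 in NPCs (5.16, SE 0.0398). Col4a2 was at 6.62, 7.44 and 8.4 CPM against 184 and 194 (4.73, SE 0.0465). Per length of the body, Col4a1 exceeded Col4a2 by a ratio of 1.865 in mESCs (1.787 ± 0.154 against 0.9582 ± 0.0657 TPM, SD, n = 12) and of 2.49 in NPCs (62.4 ± 4.81 against 25.06 ± 1.62 TPM, SD, n = 2). Col4a4 and Col4a3, which join with Col4a5 in the kidney glomerulus, lie on either side of the 126 bases printed above and were both higher in NPCs. Col4a4 was at 0.608, 0.858 and 1.76 CPM in mESCs against 7.2 and 8.43 in NPCs (3.14, SE 0.178). Col4a3 was at 0.121, 0.421 and 0.879 CPM against 0.935 and 1.27 (1.581, SE 0.344). The ratio per length of Col4a4 to Col4a3 was 2.26 in mESCs and 6.919 in NPCs. In the CTCF-AID controls, Col4a4 was at 0.3619 TPM in unstranded and 0.006972 TPM in stranded libraries, with ratios to Col4a3 of 16.46 and 1.092. No RAD21-AID or NPC library was labelled stranded, and the part of opposite-strand reads in Col4a4 was not tested. Col4a3 overlaps an antisense gene over 22.31% of its body. On the X chromosome the order was the other way round. Col4a6 was at 1.45, 1.76 and 2.43 CPM in mESCs against 13.7 and 15.9 in NPCs (3.07). Col4a5 was at 1.75, 2.15 and 3.03 CPM against 27.5 and 31.3 (3.84). The ratio per length of Col4a6 to Col4a5 was 0.583 in mESCs and 0.3485 in NPCs.

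After treatment, Col4a1 and Col4a2 had the same sign in every comparison in NPCs, and the difference between their responses was not tested. With 1 h of IAA, Col4a1 went from 298 and 308 to 396 and 400.4 CPM over its first 90 kb (0.37), and Col4a2 from 101 and 104 to 127 and 131 (0.31). At 2 h both differed by -0.16. At 4 h Col4a1 went from 391 and 419.5 to 308 and 333 CPM (-0.37) and Col4a2 from 189 and 199 to 147 and 151 CPM (-0.42), all under 2-fold. A-485 lowered both, Col4a1 from 320.5 and 332 to 66.5 and 79.9 CPM (-2.28, SE 0.0782, adjusted p = 7.29e-13, edgeR) and Col4a2 from 109 and 112 to 16.5 and 19.9 (-2.72, SE 0.085, adjusted p = 2.03e-13, edgeR). In mESCs with 4 h of IAA, the genes had -0.22 (adjusted p = 0.000275) and 0.15 (adjusted p = 0.0615) by edgeR in the additional set, and 0.48 and 0.28 in the initial set, so the sign for Col4a1 was not the same in both sets. Col4a6 and Col4a5 were both lower with A-485 (-1.98 and -1.74). Col4a6 went from 4.26 and 5.92 to 1.12 and 1.64 CPM and Col4a5 from 13.3 and 16.9 to 4.8 and 5.0. Col4a4 was the exception among type IV genes, with 1.22 and 1.79 CPM in control and 1.76 and 2.77 CPM with A-485 (0.47, adjusted p = 0.138, edgeR), and Col4a3 was too low to test there. These NPC comparisons share the same 2 control libraries.

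In mESCs, RAD21 depletion for 4 h changed few collagen genes by 2-fold or more. In the initial set of 2 against 2 libraries, 28 rows were tested, and Col6a5 was called lower. It was at 4.52 and 4.99 CPM in controls and at 1.28 and 1.66 CPM with IAA (-1.69, SE 0.32, adjusted p = 7.5e-06, edgeR). None was higher, and 0.224% of all rows were called lower and 0.237% higher. In the additional set of 12 against 12, 29 rows were tested, 2 were higher and none was lower, against 0.261% and 0.585% of all rows. Col27a1 was at 8.31, 9.99 and 13.5 CPM (lowest, median and highest) in controls and at 21, 22.7 and 25.7 CPM with IAA (1.17, SE 0.0504, adjusted p = 2.01e-26, edgeR), with no overlap. Col26a1, a gene described in testis and ovary, was at 0.656, 1.56 and 1.83 CPM in controls and at 3.1, 3.54 and 5.66 CPM with IAA (1.34, SE 0.118, adjusted p = 4.23e-14, edgeR), again with no overlap. Col6a5 was lower in this set as well, from 3.94, 5.83 and 7.36 to 2.3, 2.8 and 3.7 CPM without overlap (-0.98, adjusted p = 2.5e-13, edgeR), just inside the 2-fold limit. In the initial set, the same direction held for Col27a1, which went from 29.9 and 31 to 40.8 and 41.5 CPM (0.44, adjusted p = 0.000819, edgeR), and Col26a1 had 1.78 and 1.81 CPM in controls and 3.02 and 3.11 CPM with IAA (0.77, adjusted p = 0.145, edgeR). By adjusted p alone, 15 rows were higher and 6 lower in the additional set, while 31% and 27.4% of all rows were. The 16 rows not tested in that set included Col3a1, Col1a1 and Col1a2. Col18a1-long was lower in the initial set, from 143 and 147 to 96.8 and 105 CPM (-0.52), under 2-fold.

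In NPCs, depletion was followed at 1, 2 and 4 h, with 1 collagen row called at 1 h, 1 at 2 h and 7 at 4 h. The 2 libraries at 2 h differed more from each other, with a chi-square per degree of freedom of 10.09. It was 2.253 between the controls and 1.891 at 4 h. Replicates 1 and 2 at 2 h held 18620373 and 10755624 reads, with Col1a1 at 771 and 1199 CPM and Col18a1-long at 184 and 261 CPM. The part of this spread in the low count at 2 h was not tested, so these counts do not measure a time course. At 1 h, measured over the first 90 kb, 1 of 42 rows was higher and none lower, where 0.397% and 0.189% of all rows were. The gene was Col23a1, at 6.26 and 6.58 CPM in controls and 15.2 and 19.3 CPM with IAA (1.41, SE 0.146, adjusted p = 3.91e-07, edgeR). Over the whole body it went from 22.5 and 23.4 to 32.01 and 32.03 CPM at 2 h (0.43) and from 22.9 and 23.9 to 15.9 and 18.7 CPM at 4 h (-0.46), so it was not called at either later time. Col6a3, from 432 and 462 to 822 and 836 CPM (0.86), stayed under 2-fold at 1 h. At 2 h, 1 of 43 rows was lower and none higher, where 1.17% and 0.331% of all rows were. Col15a1 went from 3.7 and 4.13 to 1.91 and 1.94 CPM (-1.07, SE 0.241, adjusted p = 0.0156, edgeR), a call that was lost with DESeq2 (adjusted p = 0.0764) and without control replicate 2 (adjusted p = 0.0994).

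At 4 h, 7 of 43 rows, of 6 genes, were lower and none was higher, where 2.75% and 0.817% of all 16148 rows were. Col25a1 had the deepest fall, from 74.6 and 77.2 CPM to 11.4 and 12.8 CPM (-2.68, SE 0.0731, adjusted p = 3.57e-23, edgeR). It already stood at 38.9 and 40.3 CPM at 2 h (-0.96). That value covers its whole body of 419 kb, whereas the paper limited counts at 2 h to 240 kb because of elongation rates. Col12a1 fell from 257 and 263 CPM to 79.9 and 82.2 CPM (-1.71, adjusted p = 1.67e-24, edgeR), after 169.7 and 171 at 2 h (-0.63) and overlapping values at 1 h (-0.01). Col24a1 fell from 14.1 and 19.1 to 5.46 and 6.28 CPM (-1.53). The multiplexins fell in all 3 rows. Col15a1 went from 3.77 and 4.19 to 1.71 and 1.73 CPM (-1.24), Col18a1-long from 341 and 353 to 163 and 164 CPM (-1.11), and Col18a1-short from 241 and 249 to 120.1 and 122 CPM (-1.05). Col19a1 fell from 10.3 in both controls to 4.33 and 5.13 CPM (-1.16). By class these were 3 of 3 multiplexin rows, 2 of 8 FACIT, 1 of 11 fibrillar and 1 of 4 transmembrane genes, and none of 6 type IV or 5 type VI genes tested. When the trend of fold change with gene-body length over all genes was removed, 4 rows remained past both limits, and Col18a1-long (-0.92), Col18a1-short (-0.96) and Col19a1 (-0.79) did not.

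Col3a1, Col1a1 and Col1a2, which had the highest levels per length in NPCs, stayed under 2-fold at 4 h. The share of all counts on collagen rows was 0.659 and 0.703% in controls and 0.533 and 0.553% at 4 h. Col3a1 went from 1787 and 1959 to 1495 and 1547 CPM at 4 h (-0.33), Col1a2 differed by -0.41, and Col1a1 had overlapping values of 686 and 764 in controls and 718 and 743 CPM with IAA (-0.02). By adjusted p alone, 23 rows were lower and 3 higher at 4 h, where 21.1% and 18.4% of all rows were. Just inside the 2-fold limit lay Col14a1 (40.5 and 40.9 to 20.7 and 21.9 CPM, -0.96) and Col11a1 (366.1 and 366.2 to 196 and 204 CPM, -0.90). The rows higher by adjusted p alone were Col6a1 (0.10), Col9a3 (0.26) and Col5a3 (0.40). Median log2 fold changes of the collagen rows were -0.10, -0.23 and -0.33 at 1, 2 and 4 h, against -0.03, -0.04 and -0.02 for all rows. Of the 25 collagen rows above 90 kb, 6 were lower at 4 h, and of the 18 shorter rows 1 was (9.29% and 1.47% of all rows in those length classes). Of the pathway lists at 4 h, beside the 2.75% of all rows that were lower, folding and export had 1 lower of 22 (P3h2, -1.26), cleavage and crosslinking 2 of 12 (Tll1, -2.02, and Adamts2, -1.62, both procollagen proteinases), receptors none of 7, and basement membrane partners 2 of 15 (Lama2, -1.10, and Fn1, -1.16). Summed mesenchymal markers were 694.8 to 699.5 TPM at 4 h against 634.5 to 667.4 in controls.

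**Figure D1:**
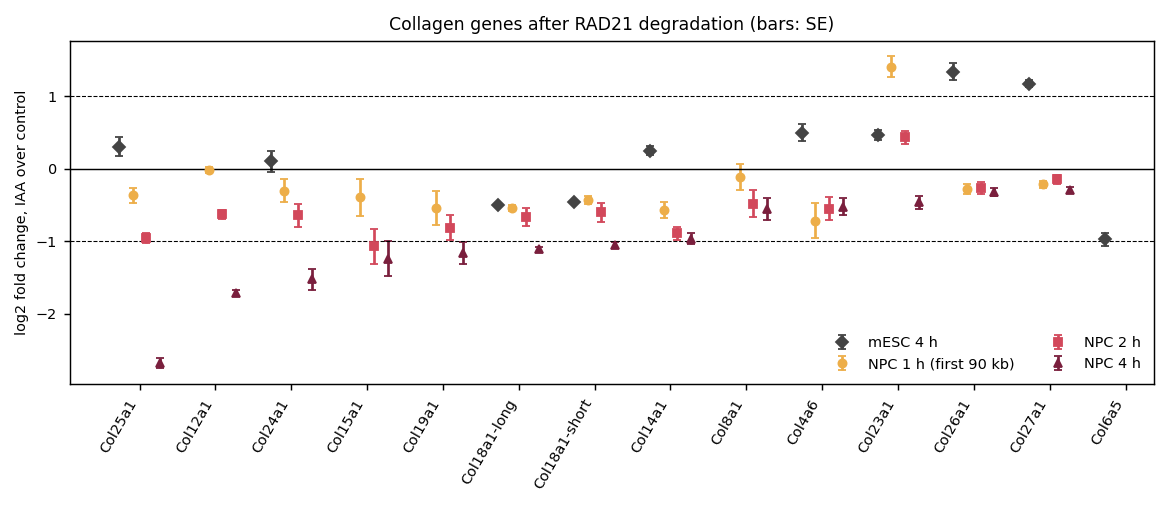
Centred log2 fold change with bars of 1 SE after IAA in RAD21-AID mESCs (additional set, 4 h) and NPCs (1, 2 and 4 h), for the collagen rows called in any of these comparisons or in the interaction, with dashed lines at 2-fold. In NPCs Col25a1 reaches -2.68 at 4 h, and in mESCs Col26a1 and Col27a1 lie above the upper line at 1.34 and 1.17.

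The response to 4 h of IAA was then compared between cell types with an interaction term, using the additional mESC set. In 10 collagen rows the NPC response was more negative and in none more positive, where 3.76% and 1.41% of 17538 rows were. All 10 have bodies above 90 kb, a length class in which 9.29% of all rows were lower in NPCs at 4 h, against 1.47% of shorter rows. The trend with length was not removed from this difference, and its shares by length class were not computed. The fitted values had opposite signs in 9 of the 10, all but Col15a1, although only for Col27a1 and Col26a1 was the mESC response itself called. Col27a1 had 1.17 in mESCs and -0.29 in NPCs (difference -1.46, adjusted p = 2.53e-22, edgeR) and Col26a1 had 1.34 and -0.33 (difference -1.66). Col25a1 had 0.30 in mESCs and -2.68 in NPCs (difference -2.99). The others were Col12a1 (-1.80), Col24a1 (-1.63), Col19a1 (-1.62), Col8a1 (-1.26), Col14a1 (-1.21), Col15a1 (-1.19) and Col4a6 (-1.02). Several of these had few counts in the mESC libraries, a mean over controls and IAA of 2.792 for Col8a1, 8.708 for Col12a1, 11.17 for Col19a1 and 12.33 for Col15a1. With the initial mESC set in place of the additional one, 8 rows were called, and 4 of the 10 were no longer among them. Col27a1 (-0.72, adjusted p = 1.89e-07) fell under 2-fold, Col4a6 had -0.22 (adjusted p = 0.708), and Col8a1 (-2.43, adjusted p = 0.296) and Col19a1 (-1.37, adjusted p = 0.268) kept a difference over 2-fold that did not pass the edgeR test. Batch and cell type cannot be told apart in this difference either.

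Inhibition of CBP/p300 lowered most collagen genes in NPCs. After 1 h of A-485, 27 of 42 rows were lower and none was higher over the first 90 kb, whereas 20.2% of all 16009 rows were lower and 0.825% higher. The median log2 fold change was -1.65 for collagen rows and -0.11 for all rows. Their share of all counts went from 0.648 and 0.695% in controls to 0.296 and 0.397%. By class, 7 of 11 fibrillar, 5 of 8 FACIT, 4 of 5 type IV, 3 of 5 type VI, 3 of 3 multiplexin, 2 of 4 transmembrane, 2 of 3 other and 1 of 3 short-chain rows were lower. Of 24 collagen rows above 90 kb, 22 were lower, and of 18 shorter rows 5 were, where 47.1% and 15.3% of all rows in those length classes were. With the length trend removed, 22 rows remained past both limits, and Col22a1 (-0.04), Col27a1 (-0.37), Col1a2 (-0.95), Col4a6 (-0.80) and Col4a5 (-0.74) did not.

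Of the 8 FACIT genes tested, 5 were lower, and Col9a2 (-0.53), Col9a3 (-0.65) and Col20a1 (0.53) were not. Col19a1 fell from 5.16 and 6.38 CPM in controls to 0.182 and 0.263 CPM (-4.78). Col12a1 fell from 249 and 261 to 17.0 and 29.3 CPM (-3.58). Col14a1 fell from 21.5 and 23.1 to 2.17 and 2.43 CPM (-3.39). These were the deepest falls of the class. Col16a1 fell from 46.6 and 50.0 to 15.9 and 17.6 CPM (-1.65), and Col22a1 from 8.51 and 9.84 to 3.89 and 5.41 CPM (-1.09). The call of Col22a1 was lost without centring (-0.97). Of the type VI genes, 3 of 5 tested were lower. Col6a6 fell from 8.15 and 9.22 to 0.527 and 0.668 CPM (-3.96). Col6a4 had 64 counts in the controls together and 2 with A-485, a ratio of 32.7 with a 95% interval of 8.69 to 276 from counting alone. Col6a3 fell from 465 and 499 to 132 and 203 CPM (-1.65). The adjoining Col6a1, from 140.4 and 168 to 95.8 and 138 CPM (-0.52), and Col6a2 (-0.82) stayed under 2-fold.

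Fibrillar genes spread widely. Col24a1 fell from 8.57 and 10.9 to 0.729 and 1.51 CPM (-3.25). Col5a1 fell from 278 and 285 to 57.6 and 76.9 CPM (-2.19), Col5a2 from 169 and 174 to 39.5 and 42.9 CPM (-2.18), and Col11a1 from 192 and 199 to 47.4 and 48.6 CPM (-2.15). The chains of types I and III, which had the highest levels, were not all called, and differences between them were not tested. Col3a1 fell from 2252 and 2473 to 886.3 and 1222 CPM (-1.29, SE 0.11, adjusted p = 1.48e-07, edgeR). Col1a2 fell from 779.6 and 863 to 341 and 473 CPM (-1.14), and without A-485 replicate 1 its value was -0.92, under 2-fold. Col1a1, which pairs with Col1a2 in the same molecule, had 864 and 965 CPM in controls and 606 and 864 CPM with A-485 (-0.44, adjusted p = 0.024, edgeR), under 2-fold. Col27a1 fell from 122 and 127 to 62.7 and 64.2 CPM (-1.09), a call that was lost without centring.

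The other classes held called rows as well. Col8a1 fell from 7.08 and 8.27 to 0.132 and 0.304 CPM (-5.20), and Col28a1 from 6.75 and 6.81 to 0.461 and 0.547 CPM (-3.85). Col25a1 fell from 21.7 and 22.4 to 1.76 and 2.04 CPM (-3.66). Col26a1 fell from 48.5 and 53.9 to 10.1 and 14.4 CPM (-2.18). Col13a1, already low in NPCs, fell from 2.98 and 3.1 to 0.364 and 0.659 CPM (-2.69). Among multiplexins, Col15a1 fell from 3.65 and 3.71 to 0.461 and 0.911 CPM (-2.52). Col18a1-long fell from 229.8 and 239 to 39.7 and 49.6 CPM (-2.51) and Col18a1-short, which starts inside it, from 304 and 314 to 98.4 and 133 CPM (-1.54). Positive values below 2-fold were measured for Col20a1 (0.53, adjusted p = 0.000344, edgeR), Col11a2 (0.37, adjusted p = 0.00619, edgeR), Col4a4 (0.47) and Col10a1 (0.23). Col4a3, Col6a5 and Col9a1 were too low to test.

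The lists of collagen machinery stand beside the 20.2% of all rows that were lower, and folding and export was near that share. Cleavage and crosslinking had 8 lower of 12 (Tll1 -5.19, Adamts2 -2.59), basement membrane partners 10 of 15 (Lama4 -3.46, Lama1 -2.80, Lamb1 -2.49), receptors 3 of 7 (Ddr2 -3.49, Itga1 -1.52) and folding and export 4 of 22 (P3h2 -4.32, Colgalt2 -3.62), and no list had a row that was higher. Some mesenchymal markers fell with them (Prrx1 -3.59, Pdgfra -3.39, Dcn -2.59, Lum -1.84), as did some neural progenitor markers (Sox9 -2.96, Olig2 -2.28, Fabp7 -1.40). The other genes of these 2 marker lists are not described here. The part of the markers in the collagen result was not tested. The A-485 and the RAD21 comparisons in NPCs share their controls, so their values can only be set side by side. Col12a1 had -3.58 with A-485 and -1.71 with 4 h of IAA, Col25a1 had -3.66 and -2.68, Col5a1 had -2.19 and -0.77, and Col4a2 had -2.72 and -0.42.

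**Figure D2:**
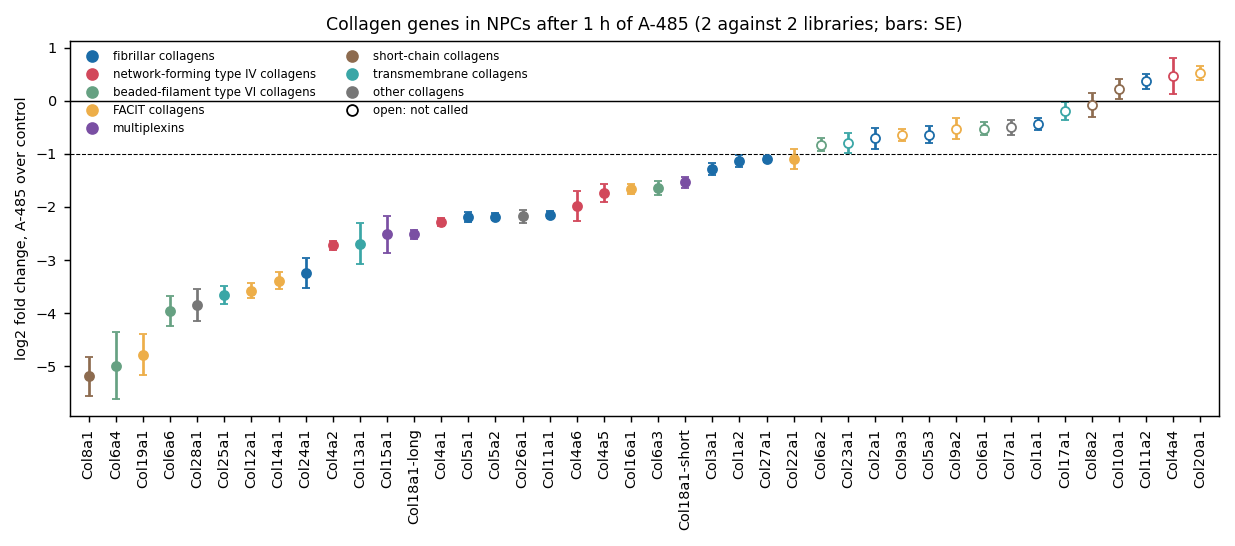
Centred log2 fold change with bars of 1 SE for the 42 collagen rows tested in NPCs after 1 h of A-485 (2 against 2 libraries), ordered by value and coloured by class, with open symbols for rows not called and a dashed line at 2-fold. Col8a1 lies lowest at -5.20 and Col20a1 highest at 0.53.

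After CTCF loss in mESCs a single collagen gene was called, Col27a1, the fibrillar gene of type XXVII. In the CTCF-AID line, 30 rows were tested after 6 h of IAA, 1 was lower and none higher, where 0.89% and 0.564% of all rows were. Col27a1 stood at 14.6 and 17.3 CPM in the unstranded controls and at 1.53 and 2.27 CPM with IAA. In the stranded libraries it stood at 19.7 and 22.4 CPM in controls and at 1.39 and 1.61 CPM with IAA. The fall was -3.38 in log2 fold change (SE 0.217, adjusted p = 0.000132, edgeR), every depleted library lay below every control, and the next collagen did not pass an adjusted p of 0.05. This fit included library type but not the replicate number. With the stranded libraries alone the value was -3.77, with adjusted p = 0.208 (edgeR).

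The same gene was the only collagen called in the CTCF-YF-AA line. At 2 h of dTAG-13, 1 of 20 rows was lower, where 0.664% of all rows were lower and 0.15% higher. Col27a1 went from 22.4 and 22.8 CPM in controls to 6.51 and 9.35 CPM (-1.57, SE 0.223, adjusted p = 2.22e-10, edgeR). At 4 h, 1 of 21 rows was lower, where 0.791% of all rows were lower and 0.238% higher. Col27a1 was then at 2.94 and 5.28 CPM (-2.40, SE 0.233, adjusted p = 6.21e-12, edgeR), below both libraries at 2 h. Col5a1 went up from 45.9 and 47.6 CPM to 69.3 and 72.2 CPM at 2 h (0.59) and to 72 and 73.3 CPM at 4 h (0.64), under 2-fold. Both times share the same controls. Of the pathway lists, Loxl1, a lysyl oxidase, was higher at 4 h (1.45).

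No collagen was called in the CTCF-dN/dC line at 2 h with AGB1, dTAG-13 or both, of 18, 17 and 19 rows tested by edgeR, and DESeq2 called none either. At an unadjusted p under 0.05 there were 3, 1 and 4 rows, where 11.5%, 3.89% and 18.9% of all rows passed. Of all rows, 0.316%, 0% and 0.633% were called lower and 0.0881%, 0% and 0.175% higher. Col27a1 had 3.96 CPM in both controls, from 33 and 35 counts, and only 14 and 27 counts with AGB1, near the limit of 20 for testing. It had 1.66 and 2.77 CPM with AGB1 (-0.81, adjusted p = 0.259), 3.78 and 6.21 CPM with dTAG-13 (0.38, adjusted p = 0.999), and 2.08 and 2.67 CPM with both (-0.72, adjusted p = 0.166), all by edgeR. With both degraders, 2 collagen rows were lower and 1 higher by adjusted p alone, where 4.55% and 2.04% of all rows were. Col18a1-long went from 90.6 and 91.9 to 62.6 and 64.8 CPM (-0.52), Col18a1-short differed by -0.52 and Col5a1 by 0.34, all under 2-fold. The 3 treatments share their controls.

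Col27a1 thus had different starting levels in the mESC lines, at control means of 30.5 CPM in the initial RAD21-AID set, 10.2 in the additional set, 18.5 in the CTCF-AID line, 22.6 in the YF-AA line and 3.96 in the dN/dC line. These means come from separately normalized comparisons and were not tested against each other. Col27a1 was called lower after CTCF loss in 2 lines and was not called in the dN/dC line, where its counts were low. It was higher after RAD21 loss in mESCs and differed by -0.29 after RAD21 loss in NPCs. Its promoter is printed because CTCF is known to bind promoters as well as loop anchors. The window chr4:63215162-63215411 on the plus strand of GRCm38.p6 (RefSeq) ends shortly before the start of the counted transcript ENSMUST00000036300.12, whose body runs from 63215435 to 63334991 on chromosome 4. Capitals mark matches to AGNGGGC, part of the CTCF motif, at positions 143 to 149 and 163 to 169.
Col27a1 upstream: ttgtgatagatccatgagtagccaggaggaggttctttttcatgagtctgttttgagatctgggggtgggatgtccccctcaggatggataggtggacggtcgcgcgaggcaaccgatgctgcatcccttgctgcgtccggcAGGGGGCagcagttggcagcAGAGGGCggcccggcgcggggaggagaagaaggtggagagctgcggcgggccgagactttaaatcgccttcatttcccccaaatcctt
This short motif was chosen after the sequence had been seen. On both strands it occurred at least once in 22.4% of 32851 promoter windows and at least 2 times in 3.89%. Of the 38 collagen windows, 14 held it and 3 (those of Col27a1, Col11a1 and Col8a2) held it 2 times or more. A longer core of the motif, which does not require these letters, matched 2.07% of all windows and 0 of the 38 collagen windows. A match in letters is a description and not a measured binding site.

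**Figure D3:**
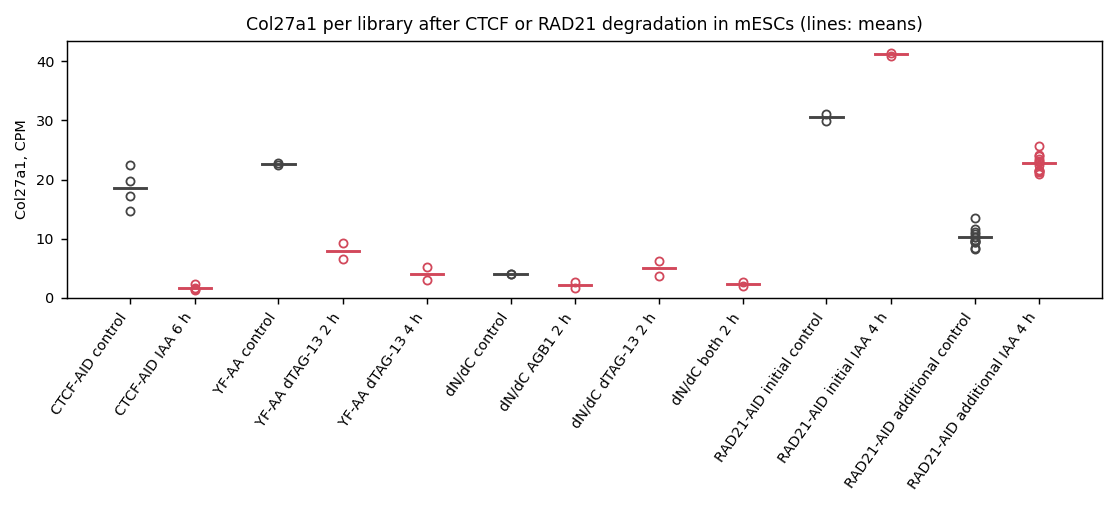
Level of Col27a1 in CPM in every mESC library (points), with group means (lines), for controls (dark) and depleted libraries (red) of each line, normalized within each comparison. It lies between 1.39 and 2.27 after 6 h of IAA in the CTCF-AID line and between 21 and 25.7 after 4 h of IAA in the additional RAD21-AID set.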

How the data were processed

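Nascent RNA was profiled by EU-seq in 60 mouse libraries. The authors trimmed reads (Cutadapt), aligned them to mm10 with bwa, dropped poorly mapped alignments (SAMtools 1.4) and rRNA or tRNA reads (Bedtools), and counted reads on representative GENCODE transcripts with HTSeq. The deposited values are whole-number read counts per transcript body, not normalized, and for short treatments a second set of columns covers only the first 90 kb. Column totals were 4027449 to 21898781 for the 56 gene-body columns and 13863983 to 17730066 for the 6 columns of 90 kb, and 0 columns belonged to samples outside the series. Intervals from counts cover counting error only.

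Transcript identifiers were matched to GENCODE M21 (GRCm38), 27296 with and 159 without the version, and 210 did not match. Counts were normalized by TMM and tested with edgeR 4.0.16 (R 4.3.3, quasi-likelihood F test) over rows whose mean count exceeded 20 in either group, with Benjamini-Hochberg adjustment over all rows tested. Log2 fold changes were centred on the median of rows above 15 TPM, whereas the test and the SE refer to the fold change before centring. Calls needed both an adjusted p below 0.05 and 2-fold or more. The CTCF-AID fit included library type. Same-numbered libraries of that line deviated together, with correlations of 0.607 and 0.844. These are a single value for each library type, since the deviations within a group mirror each other. Those numbers may pair the samples, although replicate 2 was also the deeper library in both stranded arms. The labels do not say whether replicates came from separate cultures, and p-values measure the spread between these libraries only. CPM was computed within each comparison and TPM from counts per length of the body. Alternatives were DESeq2 1.42.0, other filters and centrings, removal of the length trend, each replicate left out and replicate blocks. Tests on simulated data recovered 97 to 100% of changes of 1.5 or 2 in log2, with 0 to 2 false calls in each of the comparisons simulated. These were RAD21 loss at 4 h in NPCs and in the additional mESC set, the YF-AA line at 4 h, NPCs against mESCs, and the interaction. The CTCF-AID, A-485 and NPC 2 h comparisons were not simulated. Every gene was given the same assumed dispersion, so recovery under the measured spread of each gene was not tested.

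The members, the classes and the pathway and marker lists were chosen with earlier results of these data known. Every collagen may be named, values in every library are given for called, paired and the 3 most highly transcribed members, and pathway genes are the called ones with the smallest adjusted p, at most 4 for each list and comparison. Sequences are from RefSeq on GRCm38.p6. The treatment text of 18 libraries also describes triptolide, which their titles do not, and the titles were followed. The strand setting of the counting is not given in the sources used here.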

Additional observations from a re-analysis of the deposited data

Results flagged for a closer look

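The response to 4 h of IAA differed between NPCs and mESCs by the interaction test (edgeR) in 10 collagen rows. All had a more negative value in NPCs and a body above 90 kb. The difference in log2 fold change was -2.986 for Col25a1, -1.8001 for Col12a1, -1.661 for Col26a1, -1.6294 for Col24a1, -1.6242 for Col19a1, -1.4633 for Col27a1, -1.2571 for Col8a1, -1.2139 for Col14a1, -1.1898 for Col15a1 and -1.0224 for Col4a6. Col8a1 and Col4a6 lost the call when 1 NPC library was left out, Col8a1 without control replicate 2 (adjusted p = 0.118) or IAA replicate 1 (adjusted p = 0.0855, edgeR) and Col4a6 without control replicate 1 (-0.91) or IAA replicate 1 (-0.97).

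In the CTCF-AID line, 1 of the 4 libraries of an arm stood apart in 5 of 12 tests by Dixon's ratio of gap to range, and it was the second stranded library each time. Chance flags about 1 in 20 such groups, but these tests are not independent, since 4 of the 5 come from the nested bodies of Col18a1 and the same replicate number. Col18a1-long was at 47.2, 47.1, 57.4 and 162 CPM in controls (ratio 0.911) and at 40.0, 35, 39.4 and 118 CPM with IAA (0.94). Col18a1-short was at 30.4, 31.1, 37.8 and 86.7 CPM in controls (0.868) and at 27.6, 22.2, 25.4 and 67.1 CPM with IAA (0.882). In both rows, each IAA library lay below the control of the same library type and number, and neither row was called. Col4a1 was at 9.42, 9.4, 10.3 and 2.24 CPM in controls (0.889). Col27a1, the called gene of that line, did not stand apart in this way in either arm.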

How the results depend on the processing

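Of 880 pairs of a called collagen row and an alternative setting, 847 kept the direction and the call, 33 lost the call and 0 reversed. DESeq2 called 0 collagen rows in the initial RAD21-AID mESC set (it gave Col6a5 no adjusted p) and 0 in NPCs at 2 h, where removal of the length trend also left 0. Removal of that trend left 4 in NPCs at 4 h. In the CTCF-AID line the stranded libraries alone gave 0. With a limit of 5 TPM in place of 15, 6 rows passed in mESC controls. Leaving out 1 replicate at a time gave 1 to 2 calls in NPCs at 1 h (with Col13a1, -1.14, without IAA replicate 2), 0 to 2 at 2 h (0 without control replicate 2, and Col19a1, -1.10, added without IAA replicate 1) and 1 to 2 in the CTCF-YF-AA line at 2 h (Col7a1, 1.93, added without dTAG-13 replicate 2). Counts ranged over all settings from 36 to 40 for NPCs against mESCs, 22 to 28 for A-485 and 8 to 10 for the interaction. Against the initial mESC controls, Col23a1 (0.84), Col9a3 (0.95) and Col20a1 (0.49) were not called in NPCs, and Col2a1 lost its call without NPC control replicate 2 (0.78).

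With the replicate number as a block, the counts were 1 in the initial and 2 in the additional RAD21-AID mESC set, 1, 1 and 7 in NPCs at 1, 2 and 4 h, 27 with A-485, 1 in the CTCF-AID line, 1 at both times in the YF-AA line and 0 in the 3 dN/dC comparisons, so the block changed no count. Same-numbered libraries deviated oppositely in the initial mESC set (correlation -0.164) and in NPCs at 1 h (-0.129), and a crossed block, chosen after seeing the data, also gave 1 and 1. Depth limits what can be said in mESCs, where 16 collagen rows of the additional set, among them the type I and III genes, were too low to test.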
